A study of Mus musculus with 6 samples.

Results

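The genes of the TCA cycle and of fatty acid oxidation examined here were 38 genes chosen by name, and all 38 were found among the 34709 genes of the deposited table. They were described as 3 groups, with 5 genes for the entry of pyruvate, 15 for the TCA cycle and 18 for beta-oxidation. The rule that found them used gene names alone. RNA-seq libraries of articular cartilage were compared between knockout (KO) mice and wildtype mice, with 3 libraries for each group. All mice were 18 months old, and per the study's methods they were males and the KO line was on the C57BL/6J background. The labels gave neither a treatment nor the number of animals behind a library. The p-values below therefore measure the spread between these samples, which may be technical.

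Pyruvate made by glycolysis enters the mitochondrion, where pyruvate dehydrogenase turns it into acetyl-CoA and pyruvate carboxylase into oxaloacetate. The TCA cycle oxidizes the acetyl group and passes the electrons to the respiratory chain as NADH and FADH2. Fatty acids are activated to acyl-CoA, carried into the mitochondrion as acylcarnitines and shortened step by step by beta-oxidation, which yields acetyl-CoA and hands its first electrons to the electron transfer flavoprotein (ETF). Chondrocytes, the cells of cartilage, live with little oxygen and are known to draw much of their ATP from glycolysis.

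Each library had 52268311 to 63331135 counts. KO replicates 2 and 3 were far closer to each other than any other pair. Across the 38 genes their median absolute log2 difference was 0.0445, whereas the other 14 pairs ranged from 0.101 to 0.185. They were counted as 1 sample, so the comparison had 2 KO and 3 wildtype samples, and the 6 libraries as labelled are given beside it. The tissue label was checked with marker genes. The 11 chondrocyte markers were all detected but made up 0.159 to 0.325% of the summed FPKM (fragments scaled to transcript length and to the library total), and 2 of them (Matn3 and Col9a1) were under the expression limit. The erythroid list made up 6.79 to 13.7% in KO and 18.7 to 25.6% in wildtype libraries, and the neutrophil list 13.7 to 13.9% in KO and 6.82 to 9.91% in wildtype libraries. Neither list overlapped between the groups, and the part of these cells in the values below was not tested. In such bulk tissue, fewer cells of a type and less RNA per cell cannot be told apart.

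The levels of the 38 genes were examined first. All 38 reached the expression limit, a mean of 0.5 FPKM across the libraries, and were among the 15373 genes tested. By the mean of all 6 libraries, 36 of them were above the median of the tested genes and 21 were above the upper quartile. The median wildtype level was 23.5 FPKM for the TCA cycle, 11.6 FPKM for beta-oxidation and 7.63 FPKM for pyruvate entry, against 4.91 FPKM for all tested genes. Etfb, which encodes the beta subunit of ETF, was the highest member with 80.7 FPKM ± 15.5 (SD, n = 3). It was followed by the malate dehydrogenases Mdh1 (45.9 FPKM ± 2.12) and Mdh2 (41.5 FPKM ± 3.98), the thiolase Acaa2 (38.8 FPKM ± 1.51) and Etfa (33.8 FPKM ± 1.97). The lowest were Pdhx (4.89 FPKM ± 0.464), which encodes the component that binds the E3 subunit to the pyruvate dehydrogenase complex, and Pcx (4.32 FPKM ± 0.349), which encodes pyruvate carboxylase. When the genes were ordered by their wildtype mean, the ranges over the wildtype libraries did not overlap in 6 of 37 pairs of neighbours. These gaps followed Etfb, Acaa2, Idh3g, Acadvl, Fh1 and Dlat, and the other neighbours did not differ beyond their spread.

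**Figure D1:**
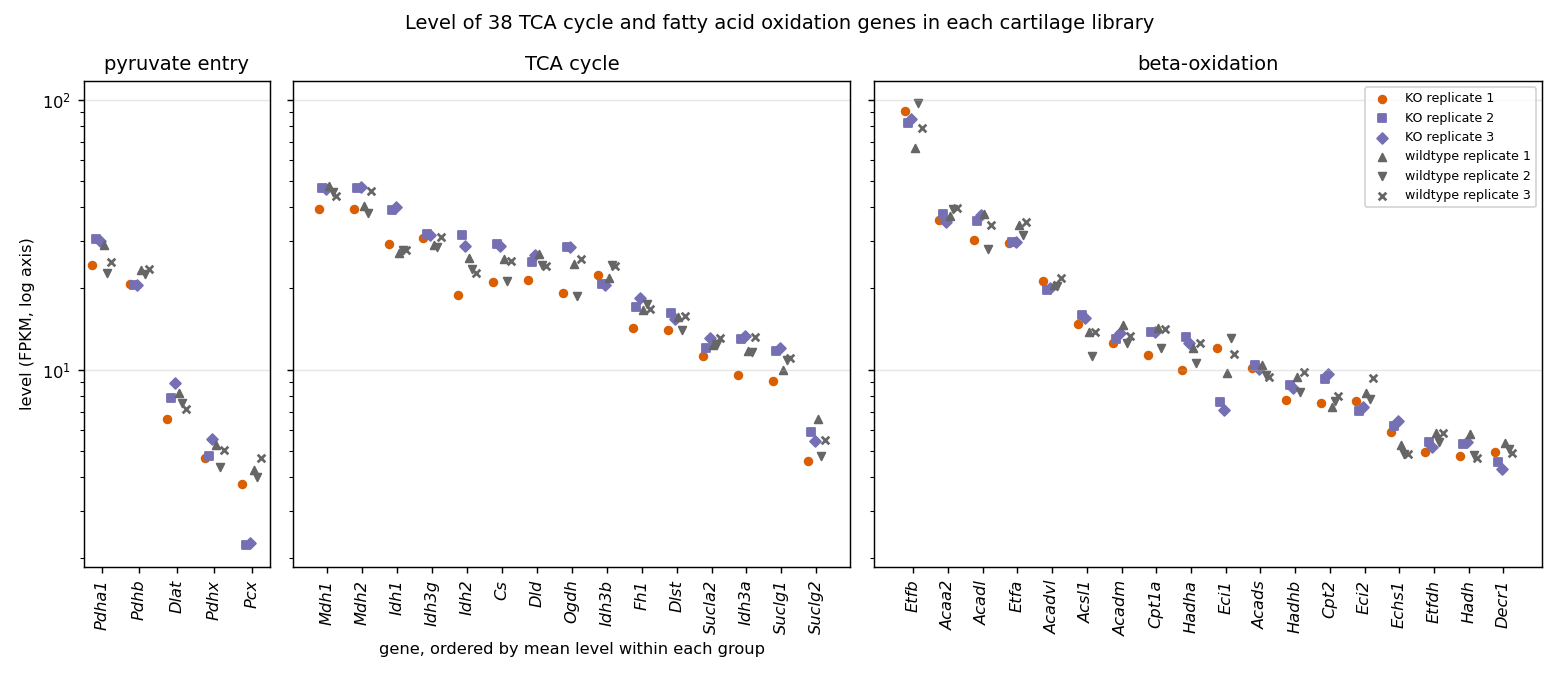
Level of each gene in FPKM (log axis) in each of the 6 libraries, by group and ordered by mean level, with KO libraries in colour and wildtype libraries in grey. KO and wildtype points overlap in height for 30 of the 38 genes, while the KO points of Idh1 and Echs1 sat above the wildtype points, and those of Pcx sat under them.

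The study asked which transcripts changed in the cartilage of the KO mice. None of the 38 genes passed the test, an adjusted p under 0.05 from edgeR's quasi-likelihood test, with the Benjamini-Hochberg method applied over all tested genes. The lowest adjusted p of a member was 0.311. In the same test 0 of 15373 genes passed (0%), so the members did not stand apart in this. With the 6 libraries as labelled, edgeR still called 0 of the 38 members (lowest adjusted p 0.0833), although 3.71% of all tested genes passed, and DESeq2 on the 5 samples also called 0 of 38 (lowest adjusted p 0.121), against 5.61% of all tested genes. At an unadjusted p under 0.05, 2 members (5.26%) were higher in KO, against 7.63% of all tested genes, and 0 members were lower, against 6.07% of all tested genes.

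The differences were small in size. The log2 difference (KO minus wildtype, where 1 is a doubling) had a median of -0.020 over the 38 genes and of -0.016 over all tested genes. It was above 0 in 15 members and under 0 in 23. By group, the median was -0.017 for pyruvate entry (2 of 5 above 0), -0.0041 for the TCA cycle (6 of 15) and -0.033 for beta-oxidation (7 of 18). Without its sign, the median difference was 0.0863 for the members and 0.20 for all tested genes. A missed threshold does not show that levels were alike, so the 95% intervals of the differences were examined. The intervals lay within 1 log2 unit of 0 for 37 of 38 members (97.4%, against 69.0% of all tested genes), the exception being Pcx. They lay within 0.5 log2 unit of 0 for 30 members (78.9%, against 23.2% of all tested genes). Their intervals reached a median of 0.318 to each side, compared with 0.475 for all tested genes. The members had a higher median wildtype level than all tested genes (13.5 against 4.91 FPKM). Their median SE was lower (0.135 against 0.202). No comparison with genes of like level was made, so these contrasts do not show that the members changed less than such genes.

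**Figure D2:**
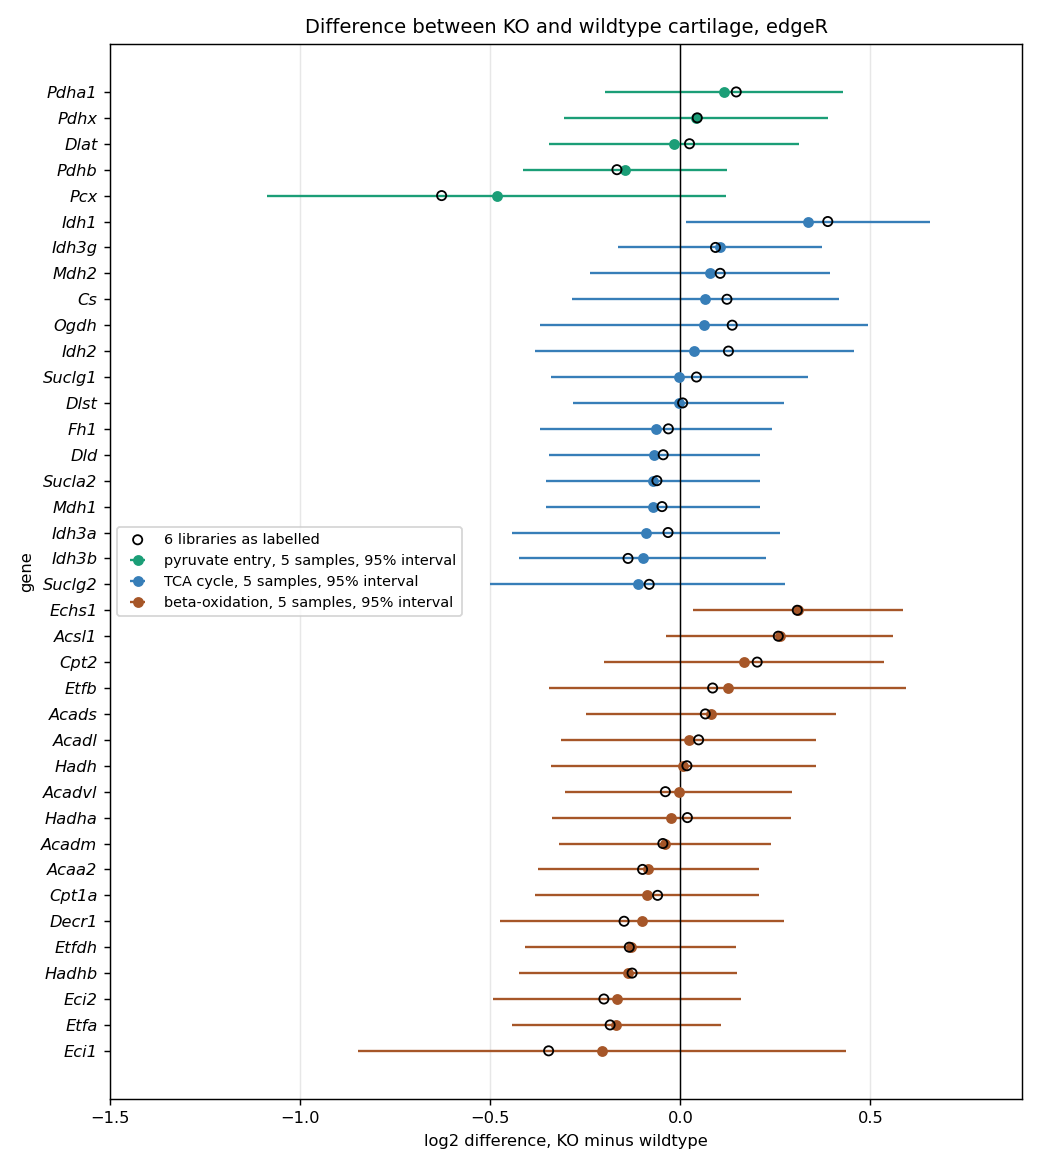
Log2 difference (KO minus wildtype) of each of the 38 genes with its 95% interval from edgeR on 5 samples (filled points), and the difference from the 6 libraries as labelled (open points). The intervals of Idh1 and Echs1 lie above 0, those of the other 36 genes hold 0, and the interval of Pcx is the only one to pass -1.

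For pyruvate entry, the genes of the pyruvate dehydrogenase complex were compared with Pcx. Pcx (ENSMUSG00000024892, chr19:4510472-4621752, plus strand, GRCm38) had the most negative difference of the 38 genes. Its level was 3.78, 2.24 and 2.28 FPKM in KO replicates 1, 2 and 3, and 4.26, 4.01 and 4.70 FPKM in wildtype replicates 1, 2 and 3. All KO libraries were under all wildtype libraries, but KO replicate 1 was close to them. The log2 difference was -0.48 (SE 0.257, 95% interval -1.09 to 0.12), with an adjusted p of 0.482 by edgeR. It was -0.11 when KO replicate 1 alone was set against wildtype and -0.97 (adjusted p 0.0618, edgeR) for KO replicates 2 and 3. Pcx shares 3883 bases with Lrfn4 on the other strand, a gene at 0.787 to 1.17 FPKM in KO and 0.906 to 1.29 FPKM in wildtype libraries. The use of strand in counting is not given in the sources used here, so reads of the shared bases cannot be told apart.

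Pdha1 and Pdhb encode the alpha and beta subunits of the E1 enzyme, which decarboxylates pyruvate. Pdha1 (chrX:160122209-160138413, minus strand) was at 24.5, 30.6 and 30.1 FPKM in the KO and 28.9, 22.9 and 25.1 FPKM in the wildtype libraries, so the groups overlapped. Its log2 difference was 0.11 (95% interval -0.20 to 0.43). Pdhb, picked after its values were seen, was at 20.8, 20.6 and 20.5 FPKM in the KO and 23.4, 22.6 and 23.6 FPKM in the wildtype libraries. Its KO libraries were all lower, yet the log2 difference was small at -0.15 (95% interval -0.41 to 0.12, adjusted p 0.672 by edgeR). The level of Pdha1 relative to Pdhb ranged from 1.18 to 1.49 in KO and from 1.01 to 1.23 in wildtype libraries, and the ranges overlapped. Pdha1 also shares 1143 bases with Map3k15 on the other strand (5.12 to 6.21 FPKM in KO and 3.73 to 4.46 FPKM in wildtype libraries). Dlat, the E2 acetyltransferase, and Pdhx had log2 differences of -0.017 (95% interval -0.35 to 0.31) and 0.041 (95% interval -0.31 to 0.39).

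In the TCA cycle, Idh1 stood out. It encodes the NADP-dependent isocitrate dehydrogenase of the cytosol and peroxisome, which makes the same conversion as the mitochondrial enzymes but outside the cycle. Idh1 (ENSMUSG00000025950, chr1:65158616-65186500, minus strand) was at 29.3, 38.9 and 40.1 FPKM in KO replicates 1, 2 and 3 and at 27.1, 27.7 and 27.7 FPKM in wildtype replicates 1, 2 and 3. All KO libraries were above all wildtype libraries, with KO replicate 1 closest to them. The log2 difference was 0.34 (SE 0.136, 95% interval 0.015 to 0.66), the highest of the 38 genes, with an unadjusted p of 0.0423 and an adjusted p of 0.340 by edgeR. It was 0.17 for KO replicate 1 alone and 0.49 for KO replicates 2 and 3. Idh2, its mitochondrial NADP-dependent counterpart, had a log2 difference of 0.037 (95% interval -0.38 to 0.46). The level of Idh1 relative to Idh2 ranged from 1.23 to 1.55 in KO and from 1.05 to 1.21 in wildtype libraries. That ratio did not overlap between the groups, and the share of other gene pairs without overlap was not determined.

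The 3 subunits of the NAD-dependent isocitrate dehydrogenase, which runs the step within the cycle, had no common direction. Idh3g was at 0.10, Idh3b at -0.099 and Idh3a at -0.090 on the log2 scale. Citrate synthase (Cs), which joins acetyl-CoA with oxaloacetate, had a log2 difference of 0.066. The E1, E2 and E3 genes of the 2-oxoglutarate dehydrogenase complex, Ogdh, Dlst and Dld, were at 0.063, -0.0041 and -0.069. Dld also serves the pyruvate dehydrogenase complex. For succinyl-CoA ligase, which makes GTP or ATP depending on its beta subunit, the differences were -0.0026 for the shared alpha subunit Suclg1, -0.11 for Suclg2 (GTP) and -0.071 for Sucla2 (ATP). Fumarase (Fh1) was at -0.065. All 15 intervals of this group lay within 1 log2 unit of 0, and 13 lay within 0.5 log2 unit.

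Mdh1 and Suclg2 were the highest and the lowest gene of the TCA cycle group by mean level. Mdh1, the malate dehydrogenase of the cytosol, was at 39.4, 47.2 and 46.7 FPKM in the KO and 48.1, 45.5 and 43.9 FPKM in the wildtype libraries (log2 difference -0.072, 95% interval -0.35 to 0.21). Suclg2 was at 4.61, 5.86 and 5.43 FPKM in the KO and 6.57, 4.79 and 5.49 FPKM in the wildtype libraries. In both genes KO replicate 1 was the lowest of all 6 libraries and KO replicates 2 and 3 lay within the wildtype range. The mitochondrial Mdh2 was at 0.078 on the log2 scale, and the ratio of Mdh1 to Mdh2 was 0.982 to 1.004 in KO and 0.959 to 1.20 in wildtype libraries.

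In beta-oxidation, Echs1 had the lowest p of the 38 genes. It encodes the short-chain enoyl-CoA hydratase, which adds water to the double bond in the second step of the spiral. Echs1 (ENSMUSG00000025465, chr7:140105710-140116476, minus strand) was at 5.90, 6.18 and 6.48 FPKM in the KO and 5.26, 4.88 and 4.86 FPKM in the wildtype libraries. All KO libraries were higher. The log2 difference was 0.31 (SE 0.117, 95% interval 0.034 to 0.58) with an unadjusted p of 0.0326 and an adjusted p of 0.311 by edgeR. It was 0.32 for KO replicate 1 alone and 0.30 for KO replicates 2 and 3. Echs1 shares 678 bases with Paox on the other strand, and Paox was itself at 3.81 to 4.48 FPKM in KO and 2.78 to 3.43 FPKM in wildtype libraries. Reads in the shared bases cannot be told apart, and the part of Paox in the values of Echs1 was not tested.

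Fatty acids enter by activation and the carnitine shuttle. Acsl1, an acyl-CoA synthetase picked after its values were seen, was at 14.8, 16.0 and 15.6 FPKM in the KO and 13.8, 11.3 and 13.8 FPKM in the wildtype libraries. Its KO libraries were all higher, and the log2 difference was 0.26 (SE 0.127, 95% interval -0.039 to 0.56, adjusted p 0.441 by edgeR). Cpt1a, the carnitine palmitoyltransferase of the outer membrane and the main point of control, was at -0.088 (95% interval -0.38 to 0.21). Cpt2, its partner in the inner membrane, was at 0.17 (95% interval -0.20 to 0.54). The level of Acsl1 relative to Cpt1a was 1.13 to 1.31 in KO and 0.933 to 0.976 in wildtype libraries, without overlap. Of the other ratios examined, that of Idh1 to Idh2 also did not overlap, and the rest did. Among the rest, Sucla2 relative to Suclg2 was 2.048 to 2.432 in KO and 1.877 to 2.605 in wildtype libraries. Idh3g relative to Idh3a was 2.353 to 3.223 in KO and 2.339 to 2.468 in wildtype libraries. Here too the share over other gene pairs was not determined.

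The acyl-CoA dehydrogenases, which take the first electrons, were close to 0. Acadvl, Acadl, Acadm and Acads act on very long, long, medium and short chains, and their log2 differences were -0.0041, 0.022, -0.041 and 0.082. The genes of the trifunctional protein, Hadha and Hadhb, were at -0.024 and -0.14, the hydroxyacyl-CoA dehydrogenase Hadh at 0.0081 and Acaa2 at -0.085. The enzymes for unsaturated fatty acids were all under 0, with -0.21 for the isomerase Eci1, -0.17 for Eci2 and -0.10 for the reductase Decr1. None of these passed the test. Decr1, the lowest of the group by mean level, was at 4.96, 4.54 and 4.30 FPKM in the KO and 5.36, 5.07 and 4.92 FPKM in the wildtype libraries, with KO replicate 1 within the wildtype range. Eci2, picked after its values were seen, was lower in all KO libraries (7.06 to 7.63 FPKM) than in all wildtype libraries (7.81 to 9.28 FPKM). In scaled counts, however, the groups overlapped for Eci2. Eci1, also picked after its values were seen, showed the widest interval, from -0.85 to 0.44. It was at 12.04, 7.58 and 7.11 FPKM in the KO and 9.69, 13.1 and 11.4 FPKM in the wildtype libraries. Thus KO replicate 1 was within the wildtype range and KO replicates 2 and 3 were under it.

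Electrons from the acyl-CoA dehydrogenases pass through ETF, made of the Etfa and Etfb products, to the ETF dehydrogenase (Etfdh) and on to ubiquinone. Etfa (chr9:55454508-55512243, minus strand), picked after its values were seen, was at 29.5, 29.7 and 29.8 FPKM in the KO and 34.5, 31.5 and 35.3 FPKM in the wildtype libraries. Etfdh, also picked after its values were seen, was at 4.96, 5.39 and 5.19 FPKM in the KO and 5.85, 5.41 and 5.81 FPKM in the wildtype libraries. Both were lower in all KO libraries, by a narrow margin for Etfdh, with log2 differences of -0.17 (95% interval -0.44 to 0.11) and -0.13 (95% interval -0.41 to 0.15). Etfdh shares 422 bases with 4930579G24Rik on the other strand (5.18 to 7.25 FPKM in KO and 5.64 to 6.08 FPKM in wildtype libraries). Reads in those shared bases cannot be told apart. Etfb was at 90.7, 81.9 and 84.8 FPKM in the KO and 66.4, 97.2 and 78.5 FPKM in the wildtype libraries, so the KO values lay inside the wildtype range. The level of Etfb relative to Etfa was 2.76 to 3.08 in KO and 1.93 to 3.08 in wildtype libraries, and that of Etfa relative to Etfdh was 5.51 to 5.94 in KO and 5.83 to 6.07 in wildtype libraries.

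Counted over all 38 genes in FPKM, 3 members (7.89%) were higher in every KO library than in every wildtype library, namely Idh1, Echs1 and Acsl1, against 11.3% of all tested genes. Another 5 (13.2%) were lower in every KO library, namely Pcx, Pdhb, Eci2, Etfa and Etfdh, against 13.7% of all tested genes. Neither share was above that of the table. In scaled counts 4 members (10.5%) were higher in every KO library, against 13.7% of all tested genes, and 4 (10.5%) were lower, against 13%. Between the 2 measures, Cpt2 was higher without overlap only in scaled counts, and Eci2 was lower without overlap only in FPKM.

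**Figure D3:**
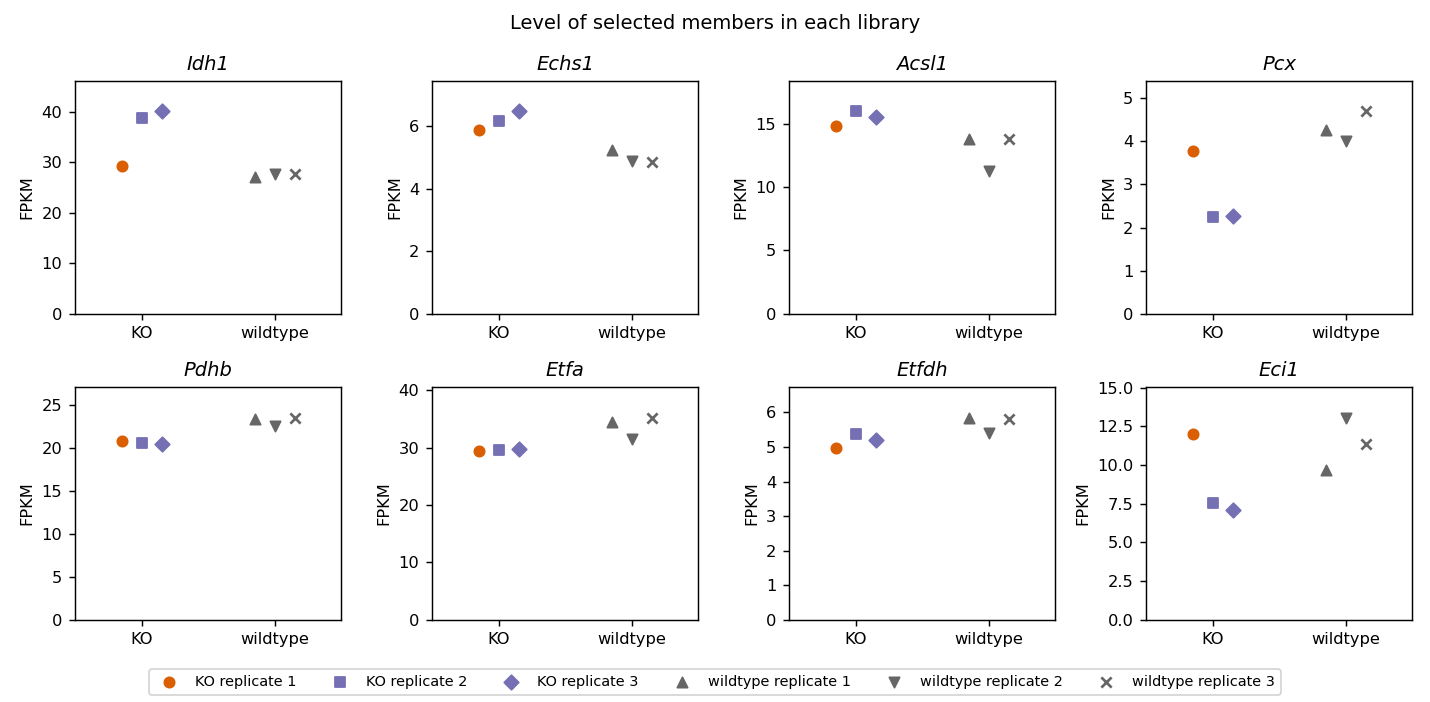
Level in FPKM (linear axes from 0) of 8 genes in each of the 6 libraries. Acsl1, Pdhb, Etfa, Etfdh and Eci1 were picked after their values were seen. For Idh1, Echs1 and Acsl1 the 3 KO points lie above the wildtype points, for Pcx, Pdhb, Etfa and Etfdh under them, and for Eci1 only KO replicates 2 and 3 do.

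The start sites of the members were examined for shared sequence, since the 38 genes have related functions. RefSeq promoters (GRCm38.p6, 250 bases before to 50 after the start site) were matched for 35 of the 38 genes and searched on both strands for the core of the NRF1 site, GCGCATGC, and for the estrogen-related receptor element, TCAAGGTCA. NRF1 and estrogen-related receptors are known to act on genes of mitochondria. The NRF1 core was in promoters of 4 of the 35 genes (11.4%), namely Etfa, Etfdh, Acadm and Ogdh, and in 3.05% of the 27025 genes with a promoter. The other motif was in 0 of the 35 genes and in 0.466% of all genes. The 27025 genes were not limited to those tested here, and no comparison with promoters of genes of like level was made. A match is a description of letters and not evidence of binding. The promoters of Etfa, Etfdh and Acadm are shown because the products of these 3 genes pass electrons to each other, with the core in capitals.
Etfa: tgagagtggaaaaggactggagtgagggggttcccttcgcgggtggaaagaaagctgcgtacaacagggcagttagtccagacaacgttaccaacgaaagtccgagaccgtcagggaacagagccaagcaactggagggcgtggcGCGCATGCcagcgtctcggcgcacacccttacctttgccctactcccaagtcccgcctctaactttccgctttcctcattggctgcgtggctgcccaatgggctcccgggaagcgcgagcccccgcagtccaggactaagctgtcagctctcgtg
Etfdh: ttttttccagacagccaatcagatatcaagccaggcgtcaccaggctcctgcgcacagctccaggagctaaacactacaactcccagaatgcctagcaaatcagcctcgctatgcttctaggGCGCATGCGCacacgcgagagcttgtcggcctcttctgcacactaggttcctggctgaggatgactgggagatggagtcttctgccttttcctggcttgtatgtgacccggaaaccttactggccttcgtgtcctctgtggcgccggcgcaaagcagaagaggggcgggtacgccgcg
Acadm: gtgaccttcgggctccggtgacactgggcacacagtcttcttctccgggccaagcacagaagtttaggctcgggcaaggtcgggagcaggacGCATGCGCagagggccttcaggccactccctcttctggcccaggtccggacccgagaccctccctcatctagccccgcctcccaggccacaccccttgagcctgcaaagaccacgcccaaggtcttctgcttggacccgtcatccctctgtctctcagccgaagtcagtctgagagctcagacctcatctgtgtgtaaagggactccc
They lie at chr9:55512194-55512493 (Etfa), chr3:79628718-79629017 (Etfdh) and chr3:153944594-153944893 (Acadm), all on the minus strand and each read 5′ to 3′ along its gene. The core began 105 bases before the start site in Etfa and 158 bases before it in Acadm, where it stands on the other strand. In Etfdh 2 overlapping copies, 1 on each strand, began 128 and 126 bases before the start site. In Ogdh it lay 15 or 36 bases before the start, depending on the RefSeq start site. The log2 differences of these 4 genes were -0.17, -0.13, -0.041 and 0.063, in the order Etfa, Etfdh, Acadm and Ogdh.

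Next, the KO samples were taken apart, because KO replicate 1 often stood away from KO replicates 2 and 3. Its counts differed from wildtype replicates 1, 2 and 3 by 705, 203 and 393 times the Poisson noise. From KO replicates 2 and 3 they differed by 1080 and 1020 times. KO replicate 1 was thus nearer in counts to each wildtype library than to either KO library. Over the members this did not hold throughout. The median absolute log2 difference was 0.165, 0.101 and 0.143 from wildtype and 0.155 and 0.185 from KO libraries. KO replicate 1 and the other KO libraries were compared with the same 3 wildtype libraries. These values are set side by side without a test. For the TCA cycle the median log2 difference was -0.14 for KO replicate 1 (4 of 15 genes above 0) and 0.070 for KO replicates 2 and 3 (11 of 15 genes above 0). For pyruvate entry it was -0.075 and 0.051, and for beta-oxidation -0.017 and -0.030. Over all tested genes it was -0.012 and -0.043. Set directly against each other, KO replicates 2 and 3 were above KO replicate 1 in 13 of the 15 TCA cycle genes (86.7%, median 0.18 log2 units), but in 6 of 18 beta-oxidation genes (33.3%) and in 49.9% of all tested genes. This is 1 sample against 1 sample, so no test of it could be made.

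Idh2, Ogdh and Cs, picked after their values were seen, were among the 4 genes of the cycle with the widest gap. Idh2 was at 18.9 FPKM in KO replicate 1, whereas 31.6 and 28.8 FPKM were found in KO replicates 2 and 3, while the wildtype libraries held 22.8 to 25.9 FPKM. Ogdh was at 19.2 FPKM in KO replicate 1 and at 28.4 FPKM in both others, against 18.8 to 25.6 FPKM in wildtype libraries. Cs was at 21.1, 29.1 and 28.8 FPKM, against 21.3 to 25.7 FPKM. In 9 of the 15 genes the gap was wider than the range of the wildtype libraries, in each case with KO replicates 2 and 3 higher, and in all tested genes the gap was wider in 45.4%. The summed level of the TCA cycle genes was 304.7 FPKM in KO replicate 1, 376.1 and 376.8 FPKM in KO replicates 2 and 3, and 323.5 to 345.8 FPKM in wildtype libraries. In scaled counts, Idh2 and Suclg1 had KO replicate 1 under and KO replicates 2 and 3 over all wildtype libraries (5.26% of members, 5.48% of all tested genes), and Acadvl the reverse (2.63% and 5.07%). The share of the erythroid list ran from 6.79 to 13.7% over the KO libraries and was highest in KO replicate 1. The skeletal muscle list summed to 157 FPKM in that library, against 3.77 to 4.65 FPKM for the other KO libraries. Wildtype libraries ranged from 36.5 to 286 FPKM for this list. For the chondrocyte list, KO replicate 1 had 1437 FPKM. KO replicates 2 and 3 had 633.9 and 642.3 FPKM of it, while wildtype libraries had 610 to 831 FPKM. The part of chondrocytes and of other cell types in the gap between the KO samples was not tested.

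**Figure D4:**
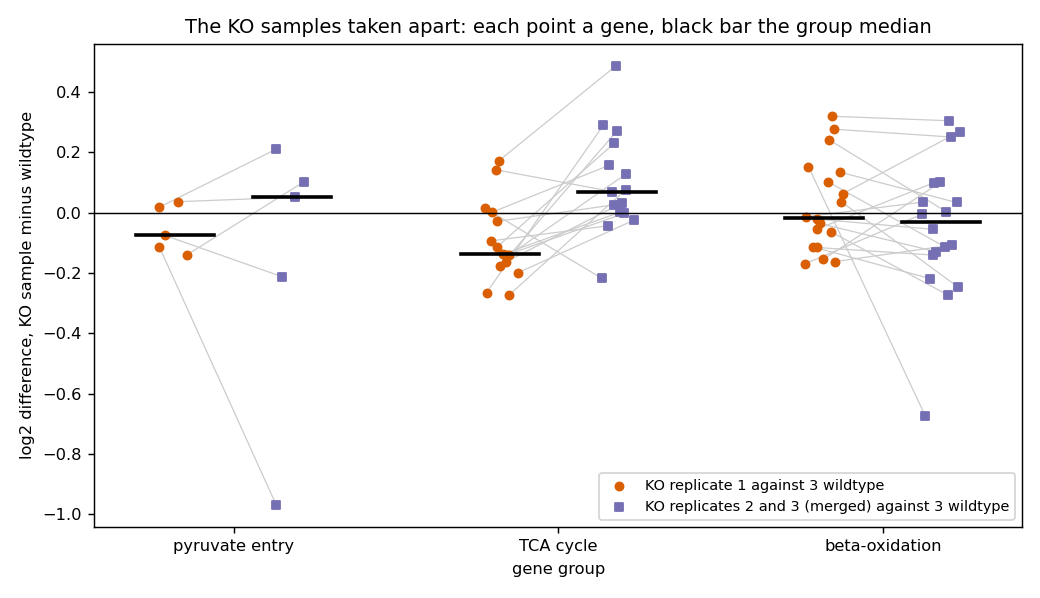
Log2 difference of each gene from the 3 wildtype libraries, for KO replicate 1 (circles) and for KO replicates 2 and 3 merged (squares), by group, with a line joining the points of 1 gene and a black bar at the group median. In the TCA cycle the median moves from -0.14 to 0.070, while in beta-oxidation both medians lie near 0.

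Other genes of the same pathways were read from a list of 79 names, of which 78 were found and 69 were tested. Here too 0 passed the test (edgeR, lowest adjusted p 0.166), and the median log2 difference was -0.0025. At an unadjusted p under 0.05, 5 were higher (7.25%, against 7.63% of all tested genes) and 5 lower (7.25%, against 6.07%). With the 6 libraries as labelled 2 of the 69 genes passed edgeR's test, where 3.71% of all tested genes did. They were the fatty acid transporter Cd36, which was lower (adjusted p 0.0371), and the glutamate dehydrogenase Glud1, which was higher (adjusted p 0.0433). Under the expression limit were Ogdhl, Dhtkd1, Me3, Acsl6, Acaa1b, Acacb, Bbox1, Ppara and Ppargc1a.

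Beside the TCA cycle, Glud1 feeds 2-oxoglutarate into it from glutamate. Glud1 was at 44.1, 58.3 and 57.2 FPKM in the KO and 36.7, 35.9 and 36.5 FPKM in the wildtype libraries, all KO libraries being higher (log2 difference 0.50, SE 0.135, adjusted p 0.197 by edgeR). Pdk3, a kinase that switches pyruvate dehydrogenase off, was at 13.9, 17.4 and 16.4 FPKM in the KO and 13.0, 12.4 and 11.9 FPKM in the wildtype libraries (log2 difference 0.32). Among the genes of fatty acid breakdown, the peroxisomal oxidase Acox3 was at 5.2 to 8.53 FPKM in KO and 4.52 to 4.88 FPKM in wildtype libraries (log2 difference 0.52). The acyl-CoA dehydrogenase Acad11 had a log2 difference of 0.41 and the muscle type carnitine palmitoyltransferase Cpt1b one of 0.72, the latter at 0.691 to 1.48 FPKM. Ehhadh, the peroxisomal bifunctional enzyme, was at 0.772 to 1.01 FPKM in KO and 1.43 to 1.74 FPKM in wildtype libraries (log2 difference -0.88).

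Fabp4 and Cd36 had the most negative differences of the 69 genes, ahead of Ehhadh. Cd36 was at 19.4, 12.2 and 13.0 FPKM in the KO and 36.3, 29.4 and 42.7 FPKM in the wildtype libraries, with a log2 difference of -1.14 (SE 0.247, 95% interval -1.72 to -0.56, adjusted p 0.166 by edgeR). The fatty acid binding protein Fabp4 was at 25.1, 9.43 and 9.28 FPKM in the KO and 56.9, 32.1 and 48.6 FPKM in the wildtype libraries (log2 difference -1.36, adjusted p 0.252). The groups did not overlap for either gene. Of the 69 genes, 9 (13%) were lower in every KO library in FPKM, against 13.7% of all tested genes. Another 8 (11.6%), Glud1 among them, were higher in every KO library, against 11.3% of all tested genes. Lipoprotein lipase (Lpl) and the nuclear receptor Pparg, which drives fat cell genes, were at -0.85 and -0.78. Fat cells express these 4 genes strongly. The adipocyte marker list, which holds none of them, had a summed level of 11.3 to 28.6 FPKM in KO and 42.6 to 156 FPKM in wildtype libraries. None of its 7 markers was at 0, but Retn and Lep were under the expression limit. The monocyte and macrophage list, another cell type with Cd36 and Lpl, was at 252 to 310 FPKM in KO and 293 to 374 FPKM in wildtype libraries. The endothelial list was at 20.6 to 23.1 FPKM in KO and 21.5 to 34 FPKM in wildtype libraries, with overlap. The part of fat cells, macrophages and endothelial cells in these 4 differences was not tested. The B cell list was also lower in all KO libraries, with 83.6 to 131 FPKM in KO and 266 to 296 FPKM in wildtype libraries.

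**Figure D5:**
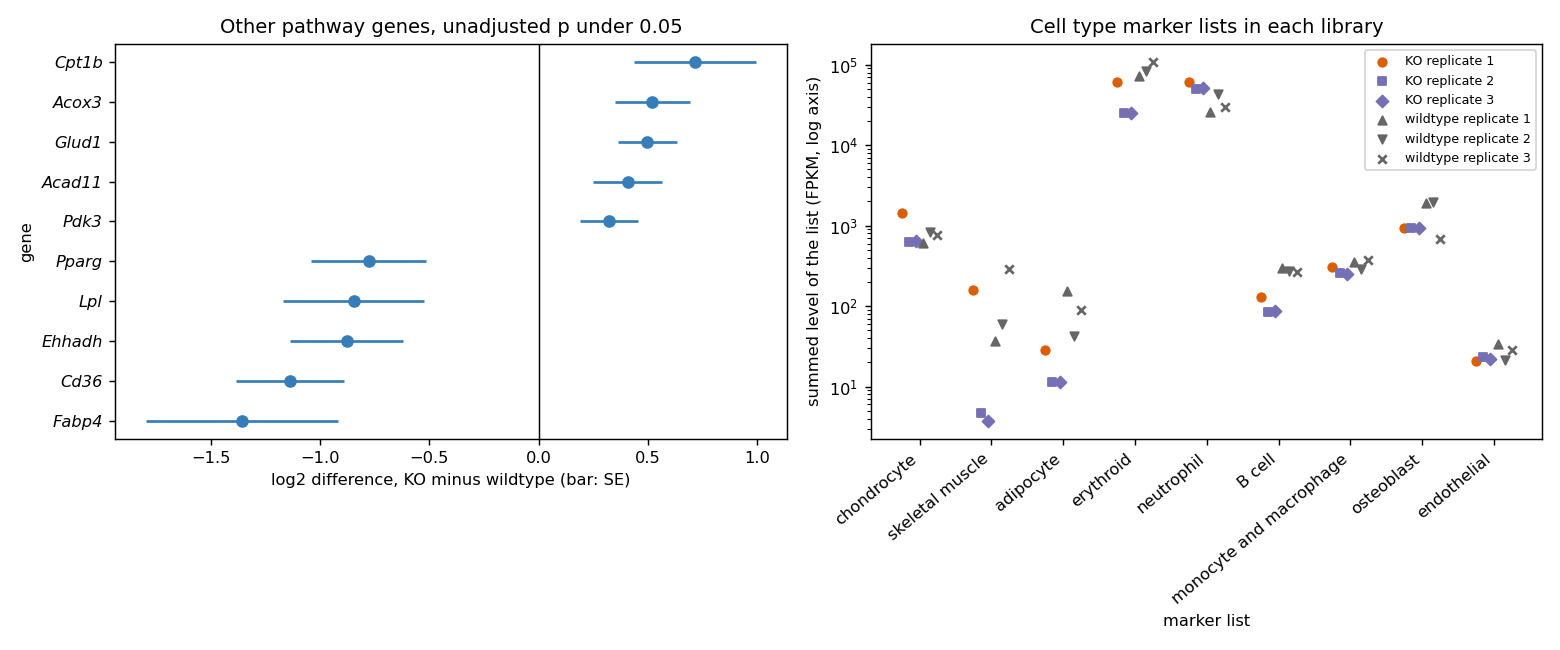
Left, log2 difference (KO minus wildtype) with its SE for the 10 other pathway genes with an unadjusted p under 0.05, none of which passed the adjusted test. Right, summed level in FPKM (log axis) of each cell type marker list in each library, where the adipocyte, erythroid and B cell lists are lower and the neutrophil list is higher in the KO libraries.

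The deposited annotation was compared across the members. All 38 carried a GO term of the mitochondrion, and 4 also one of the peroxisome, namely Idh1, Idh2, Eci2 and Acsl1. By the KEGG terms in that annotation, 16 belonged to the citrate cycle, 13 to fatty acid degradation and 7 to pyruvate metabolism. Another 7 terms were for the breakdown of branched-chain amino acids and 5 for PPAR signaling. Idh2, Idh3b and Dlat carried no citrate cycle term there, and Hadhb none of fatty acid degradation. The counts therefore describe the deposited annotation and may miss members of a pathway. The 5 PPAR genes (Cpt1a, Cpt2, Acadm, Acadl and Acsl1) had log2 differences from -0.088 to 0.26, in both directions, while Pparg itself was at -0.78.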

How the data were processed

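Strand-specific mRNA libraries of mouse articular cartilage were sequenced as paired reads, 3 for KO and 3 for wildtype. The knocked-out gene is not reported here. The authors deposited 1 table with, for each of 34709 genes and 6 libraries, an FPKM value scaled by the authors within each library, and a count. The deposited counts were treated as estimated counts, since low values piled up at 4 (6596 values, against 4170 at 3 and 2332 at 5). The submitters' processing notes name cutadapt 1.9, HISAT2 2.0.4, UMI-tools, StringTie 1.3.4d, DESeq2 and edgeR, without roles. The counter and its use of strand are not given in the sources used here. Positions follow GRCm38. Unused sample columns numbered 0.

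Groups and replicate numbers came from the sample titles. The test covered the 15373 genes whose mean across libraries reached 0.5 FPKM. Counts were rounded and tested with edgeR 4.0.16 (quasi-likelihood, TMM scaling, R 4.3.3) and p-values were adjusted by Benjamini-Hochberg. KO replicates 2 and 3 were averaged and counted once. Their counts differed by 8.14 times the Poisson noise, the other 14 pairs by 128 to 1300 times. SE and 95% intervals came from the F statistic. Alternatives were the 6 libraries as labelled, median-of-ratios scaling, no filter, a minimum of 5 FPKM, DESeq2 1.42.0, limma 3.58.1 on log2(FPKM + 1) and log2(FPKM + 0.1), each library left out and a replicate block. Scripts were tested on simulated data. A floor of 3 counts was 0.0474 to 0.0574 CPM and covers counting error only.

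The members and lists were chosen with earlier results of these data known. All members are named. Values in every library are given for members with an unadjusted p under 0.05 and for the highest and lowest of each group, and the pathway genes named are those with an unadjusted p under 0.05. Others were picked after their values were seen, as stated there. Tmlhe was not analysed here. Nnt, carried by 2 overlapping genes of the table, is uncertain.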

Additional observations from a re-analysis of the deposited data

How the results depend on the processing

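No member passed the adjusted threshold in any of the 16 fits, with a lowest adjusted p from 0.0618 (Pcx, without KO replicate 1) to 0.65. Of the 38 members, 20 kept the sign of their difference in all 15 alternatives (8 above and 12 under 0), among them Idh1, Echs1, Acsl1, Pcx, Pdhb, Etfa and Etfdh. The number of genes past the threshold was 570 with the 6 libraries as labelled (378 higher, 192 lower), 863 by DESeq2, 21 with no filter, 9 without KO replicates 2 and 3, and 0 to 352 with 1 library left out, the last without KO replicate 1. It was 1 without wildtype replicate 2 and 1 without wildtype replicate 3. Members at an unadjusted p under 0.05 were 4 with the 6 libraries, 1 at a minimum of 5 FPKM, 0 by limma with either pseudocount, 0 without KO replicates 2 and 3, and 0 to 3 with 1 library left out (3 without KO replicate 1, 0 without any 1 of the wildtype libraries). The beta-oxidation median was 0.0053 with no filter, -0.072 at a minimum of 5 FPKM and from -0.066 (without wildtype replicate 2) to -0.030 (without KO replicate 1) with 1 library left out. The pyruvate entry median was -0.075 without KO replicates 2 and 3 and -0.065 to 0.051 with 1 library left out, the highest without KO replicate 1. The TCA cycle median was -0.14 without KO replicates 2 and 3 and -0.034 (without wildtype replicate 2) to 0.070 (without KO replicate 1) with 1 library left out. A lone KO sample was assumed to vary like the others. The cause of these shifts was not tested.

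The sign turned in the other 18 members, among them Eci1, Etfb and Decr1, whose differences were -0.21, 0.12 and -0.10. Dlat, Dlst, Suclg1 and Hadha were at 0.024, 0.0060, 0.042 and 0.018 with the 6 libraries, at 0.023, 0.033, 0.036 and 0.015 with no filter, and at 0.019, 0.0060, 0.039 and 0.015 with the replicate block. Acadvl was at 0.030 with no filter. Dlst, Suclg1 and Acadvl were at 0.0071, 0.0088 and 0.0065 with median-of-ratios scaling and at 0.0072, 0.0090 and 0.0064 by DESeq2. Idh2, Acadl and Hadh were at -0.013, -0.028 and -0.041 at a minimum of 5 FPKM. Idh2 and Hadh were at -0.0064 and -0.0066 by limma with a pseudocount of 1 and at -0.0080 and -0.0072 with 0.1. Without KO replicates 2 and 3, Cs was at -0.11, Idh2 at -0.27, Idh3b at 0.015, Ogdh at -0.18, Acadl at -0.054, Acadvl at 0.10, Hadh at -0.013, Eci1 at 0.15 and Decr1 at 0.036. With 1 library left out, the difference ran from -0.065 to 0.10 for Dlat, -0.013 to 0.093 for Pdhx, -0.0043 to 0.29 for Idh2, -0.14 to 0.076 for Idh3a, -0.041 to 0.27 for Ogdh, -0.034 to 0.038 for Dlst, -0.091 to 0.0015 for Dld, -0.065 to 0.13 for Suclg1, -0.10 to 0.032 for Fh1, -0.068 to 0.099 for Acadl, -0.11 to 0.034 for Acadvl, -0.067 to 0.10 for Hadha, -0.038 to 0.086 for Hadh and -0.017 to 0.31 for Etfb.

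The labels number replicates alike in both groups. Same-numbered libraries deviated from their group means with correlations of -0.145, -0.108 and -0.0581. Because 2 of the KO libraries were nearly alike, these values cannot show whether same-numbered libraries were paired. With the replicate block on the 6 libraries, 0 genes and 0 members passed, 2809 genes had an unadjusted p under 0.05 and the lowest adjusted p of a member was 0.178. With 2 KO samples, 1 of them merged, the intervals given with each difference are the limit on what could be seen.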
